A study of Mus musculus with 4 samples.

Results

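Egr1 and 9 further genes that report on ERK signalling were measured in B16-F10 cells, a pigmented and metastatic mouse melanoma line. The genes were taken by name, as every non-control probe whose RefSeq accession belongs to Egr1, Fos, Jun, Ier2, Dusp4, Dusp6, Spry2, Spry4, Etv4 or Etv5. This gave 11 probes (2 for Spry2, 1 for each of the others) of the 56605 probes on the array, and 10 of the 23462 gene symbols that the probes cover. The list was made with the Cdh1 minus control values of these arrays in view, in which Egr1 stood out, and is treated as chosen by them, so all their differences with Cdh1 are descriptions and carry no test. All cultures were grown with 10% fetal bovine serum. For 24 h they received either no addition (control, 2 arrays) or recombinant Cdh1 protein at 100 ng/mL (Cdh1, 2 arrays). Cdh1 is the mouse symbol for E-cadherin, which joins epithelial cells to each other. Set 1 and set 2 are independent culture sets, and each gave 1 control and 1 Cdh1 array. Everything comes from this single cell line, and no other line or time was analysed here.

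ERK is the last kinase of the RAS-RAF-MEK-ERK cascade, which carries growth factor and serum signals to the nucleus. Active ERK switches on immediate early genes within minutes without new protein synthesis; Egr1, Fos, Jun and Ier2 belong to these, and Fos and Jun proteins pair to form the transcription factor AP-1. A slower group limits the signal: Dusp4 and Dusp6 are phosphatases that act on MAP kinases, and Sprouty proteins (Spry2, Spry4) restrain receptor signalling upstream of ERK. Etv4 and Etv5 are ETS transcription factors of the PEA3 group that follow ERK activity. In melanoma the cascade is a main driver of growth, and transcripts of these genes are widely used as a readout of its output.

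Between 59.3% and 61.3% of the 59305 non-control spots of an array were well above background, which is the scanner software's flag for a spot clearly brighter than its surroundings, and 0 were saturated. Levels below are log2 of the processed Cy3 intensity relative to the 75th percentile of the array, so 0 is that percentile and 1 unit is a factor of 2. Of the 10 genes, 7 were well above background on all 4 arrays (Fos, Jun, Ier2, Dusp4, Dusp6, Spry2, Etv5). Egr1 was so on 2 arrays, and Spry4 and Etv4 on 1 array each. The 7 melanocyte markers (Tyr, Tyrp1, Dct, Pmel, Mlana, Mitf, Sox10) were well above background on all 4 arrays. On no array was this so for the leukocyte markers Ptprc and Adgre1, Epcam, Krt8 and Krt18 of 5 epithelial markers, or Dcn, Lum and Cdh5 of 5 fibroblast and endothelial markers, whereas Itgam, Cd3e, Krt5, Col1a1 and Pecam1 were above background on every array and Cldn4 on 1.

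**Figure D1:**
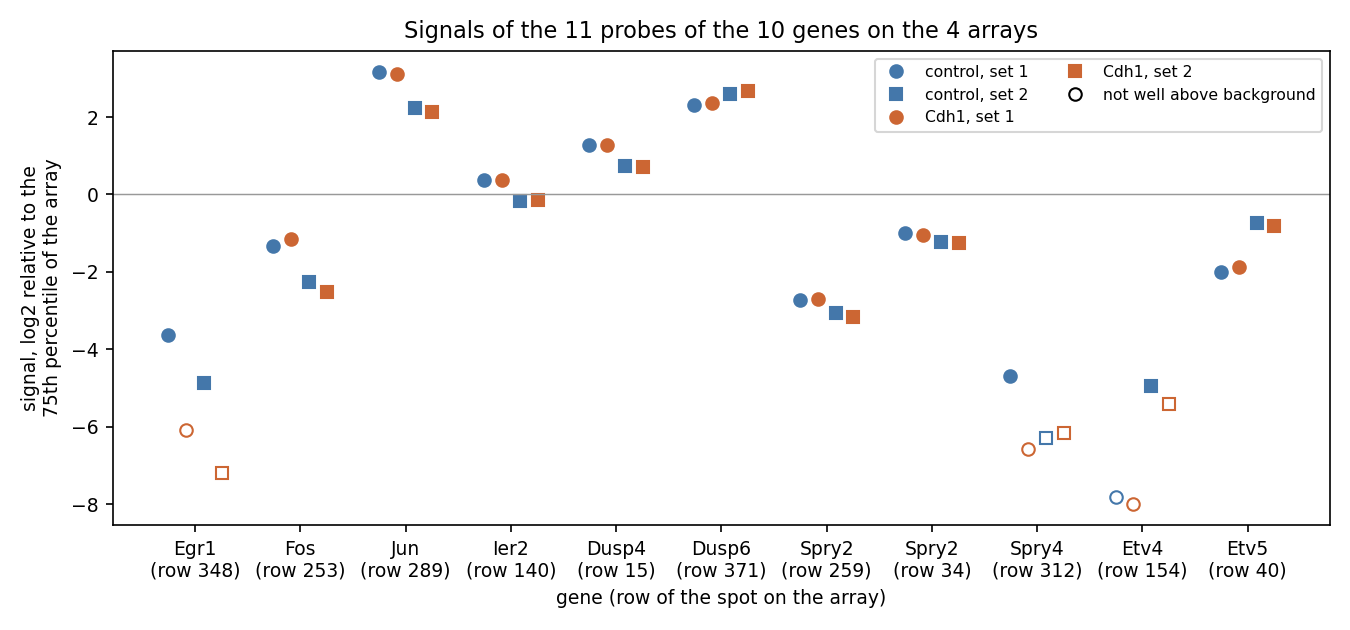
Signal of each probe on the 4 arrays (vertical axis, log2 relative to the 75th percentile of the array), with colour for the group, shape for the culture set and open symbols for spots not well above background. Egr1 is filled in control and open in Cdh1, while for Fos, Jun, Ier2, Dusp4 and Etv5 the circles (set 1) and squares (set 2) separate and the colours do not.

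The first question, set by the design, was what changed with Cdh1. Egr1 (NM_007913), a zinc finger transcription factor, was brighter on each control array than on each Cdh1 array. Its processed intensity was 46.0 ± 5.22 in control set 1 (the error is the scanner software's estimate for the spot) and 8.50 ± 2.36 in Cdh1 set 1. In set 2 it was 21.3 ± 3.09 for control and 4.17 ± 3.005 for Cdh1. The groups did not overlap, as was so for 18.1% of the probes tested. Each control spot carried the flag for well above background, and each Cdh1 spot lacked it. On the log2 scale these were levels of -3.63, -6.08, -4.87 and -7.21 in the same order, with means of -4.25 ± 0.88 in control and -6.64 ± 0.79 in Cdh1 (SD, n = 2). Since the Cdh1 values are not well above background, the lowest signal that counted as such on each Cdh1 array was put in their place. Against these floors control was 2.87-fold higher, which is called the bound below. It is not a strict minimum: the Etv4 spot in Cdh1 set 2 lacked the flag at -5.42, above that array's floor of -5.60. Within the sets, the bound was 4.96-fold in set 1 and 1.66-fold in set 2. In bulk RNA a lower signal can mean fewer cells with the transcript or less of it per cell, and these cannot be told apart. Across all 32568 probes tested, limma called 0% between Cdh1 and control after Benjamini-Hochberg adjustment at 0.05 (0 probes, lowest adjusted p 0.783, 561 at an unadjusted p under 0.05), and 8 of the 10 genes were among those fitted (not Spry4 and Etv4). With the culture set as a block the number was also 0 (lowest adjusted p 0.617). With normexp background correction (offset 50) and quantile normalization together, the measured difference of the Egr1 means was -0.50 in place of -2.40; both figures include spots not well above background.

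Egr1 was a dim spot in row 348 of 384. Before background subtraction its median brightness was 82.5 over a local background of 29 in control set 1, and 41.5 over 27 in Cdh1 set 1. In set 2 these were 53 over 25 for control and 38.5 over 25 for Cdh1. The spots around it differed among themselves. Among the 46 non-control spots within 3 rows and 3 columns, the median Cdh1 minus control difference was -0.16 in set 1 and 0.07 in set 2, and among the 21 of them well above background on all 4 arrays it was -0.05 and 0.01. Those 21 ranged from -0.80 to 0.35 in set 1 and from -0.13 to 0.49 in set 2. The dimmer neighbours, whose values are not well above background on at least 1 array, ranged from -4.83 to 1.89 in set 1 and from -1.58 to 3.37 in set 2.

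**Figure D2:**
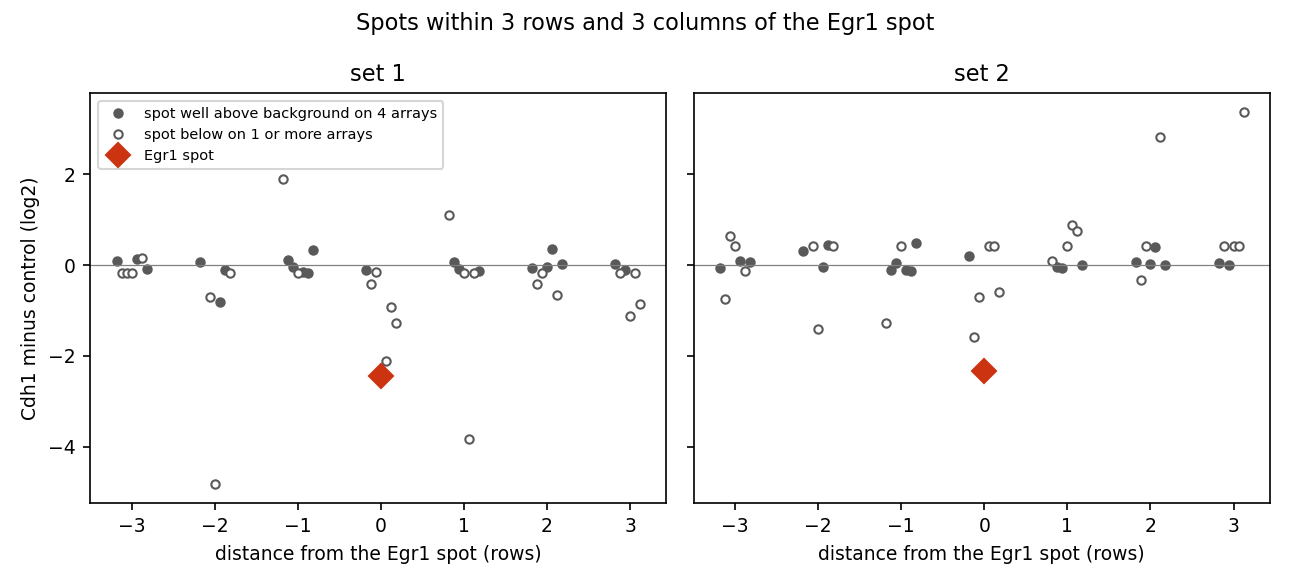
Cdh1 minus control difference (log2) of the Egr1 spot (diamond) and of the 46 spots within 3 rows and 3 columns of it, by distance in rows, in set 1 and in set 2. Open circles are spots not well above background on at least 1 array. The spots bright on all 4 arrays lie between -0.80 and 0.49 over both sets, while open circles reach from -4.83 to 3.37.

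The Egr1 spot was compared with other probes by the background flags, as a description, since the same arrays chose the gene. The flag pattern of Egr1, set in each control and in no Cdh1 spot, was shared by 179 probes, Egr1 included (0.316% of all probes), while the reverse held for 75 (0.132%). The share with the control-only pattern was 0.272% in rows 1 to 336, 0.423% in rows 337 to 360, where Egr1 lies, and 0.83% in rows 361 to 384. Of the 12 such probes with a bound at least as high as that of Egr1, itself included, 9 lay in rows 361 to 384 and Egr1 was the only one in rows 337 to 360. The part of array position in the Egr1 difference was not tested. Among 14449 other genes, the 5 whose 4 levels, centred on their mean, lay nearest to those of Egr1 were Twist1 (a mesenchymal transcription factor, root mean square distance 0.212), the olfactory receptor gene Olfr1453 (0.405), the vomeronasal receptor gene Vmn1r201 (0.534), Olfr1294 (0.591) and 4933429O19Rik (0.645). The distance of Egr1 from a flat profile was 1.34. These likenesses rest on 4 arrays, all 5 probes were well above background on only 2 of them, as was Egr1, and the dim values have no settled order, so neither has the ranking. The 5 probes lay in rows 376 to 384.

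None of the 7 genes that could be compared on all arrays shared the Egr1 pattern, while Spry4 and Etv4 were too dim to compare. For the 7 genes above background on every array the Cdh1 difference within a set lay between -0.26 and 0.17, and both of these extremes belonged to Fos, with 0.17 in set 1 and -0.26 in set 2. Their median was -0.0024, against -0.01 over all 14450 genes tested, and their control and Cdh1 arrays overlapped for all 7. Jun was lower in both sets (-0.04 and -0.09), as was Spry2 (-0.07 and -0.02), and Dusp6 was higher in both (0.05 and 0.08). Ier2 (-0.02 and 0.03), Dusp4 (0.01 and -0.01) and Etv5 (0.12 and -0.09) took opposite signs in the sets. For comparison, 27.2% of all probes tested were lower and 25.7% were higher with Cdh1 in both sets. A set of such small differences has no settled direction: the median over the 8 genes tested, Egr1 included, was -0.02, and it was 0.0015 with the scaling of the authors' deposited table.

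**Figure D3:**
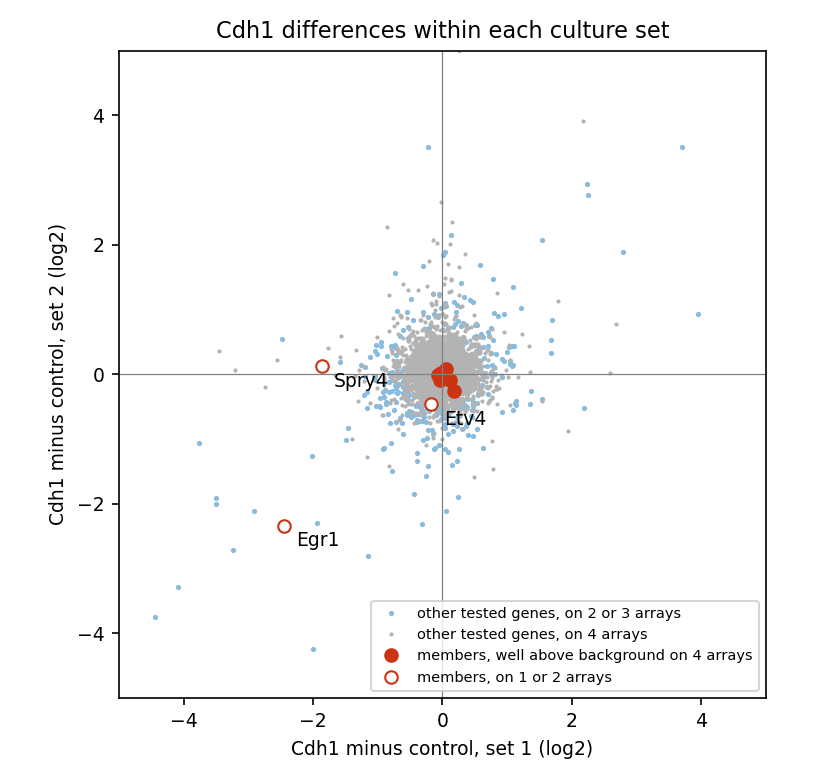
Cdh1 minus control difference in set 1 (horizontal axis) against set 2 (vertical axis), both log2, for the 10 genes (red, open where well above background on only 1 or 2 arrays) and for the other tested genes (grey on 4 arrays, blue on 2 or 3), with 4 of 14450 genes outside the axes. The 7 genes measured on all arrays sit within 0.26 of 0 on both axes, and Egr1 is drawn at its measured -2.45 and -2.34, where both Cdh1 spots are not well above background.

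Spry4 (NM_011898) and Etv4 (NM_001316365) were too dim for a comparison and passed no filter. Spry4 had a processed intensity of 21.9 ± 3.30 in control set 1, where alone it was well above background, against 6.07 ± 2.28 in Cdh1 of that set. In set 2 it had 7.98 ± 2.38 for control and 8.59 ± 3.11 for Cdh1. Its high value was thus a single array, and in set 2 the Cdh1 spot was no dimmer than the control spot. Etv4 had 2.52 ± 2.53 in control set 1 and 2.26 ± 2.27 in Cdh1 set 1, each about as large as its error. It had 20.1 ± 3.03 in control set 2, the only array where it was well above background, and 14.4 ± 3.35 in Cdh1 set 2.

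For the 7 genes above background on every array, the arrays of one culture set lay apart from those of the other. This comparison sets the 2 arrays of set 2 against the 2 of set 1, is balanced for treatment and was not used to choose the genes, although a lower level of a related gene list in set 2 was already known from earlier results. The labels give no other difference between the sets, so what distinguishes them cannot be told apart from the set number. The spread in this test is that between the control and the Cdh1 culture within a set. Variation between repeats of a set is not in it. Of the 7 genes tested, 5 differed at a limma adjusted p under 0.05, 4 lower (Fos, Jun, Ier2, Dusp4) and 1 higher (Etv5) in set 2. Over all genes tested, 19% of 14640 were called (11.5% lower and 7.53% higher in set 2); over all probes, 15.5% of 32955 were called (8.64% lower and 6.82% higher). The sets had no overlapping values in any of the 7 genes, as in 67.6% of the probes tested. The median difference of the 7 genes was -0.52, being -0.55 in the control arrays and -0.50 in the Cdh1 arrays, against -0.03 over all genes. With only 2 arrays a set, none of the 5 calls held when any 1 array was left out (adjusted p from 0.0568 to 0.0994) or when dim probes were not filtered (0.083 to 0.125). With treatment as a block, Fos (adjusted p 0.052) and Ier2 (0.0509) were no longer called. Every one of the 7 kept its direction under each setting tried. Over these sets 3 of 7 melanocyte markers were also lower in set 2 (Tyr by 1.77, Pmel by 0.42 and Mitf by 0.39 on the log2 scale), as was Col1a1 of the fibroblast list (by 1.22), with limma adjusted p of 0.00776, 0.028, 0.0399 and 0.0216. The mean level of the melanocyte list ranged from 6.92 to 6.96 in set 1 and was 6.53 on both arrays of set 2, and that of the fibroblast and endothelial list from -6.04 to -5.98 and from -6.34 to -6.05. Their part in the differences of the 10 genes was not tested.

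**Figure D4:**
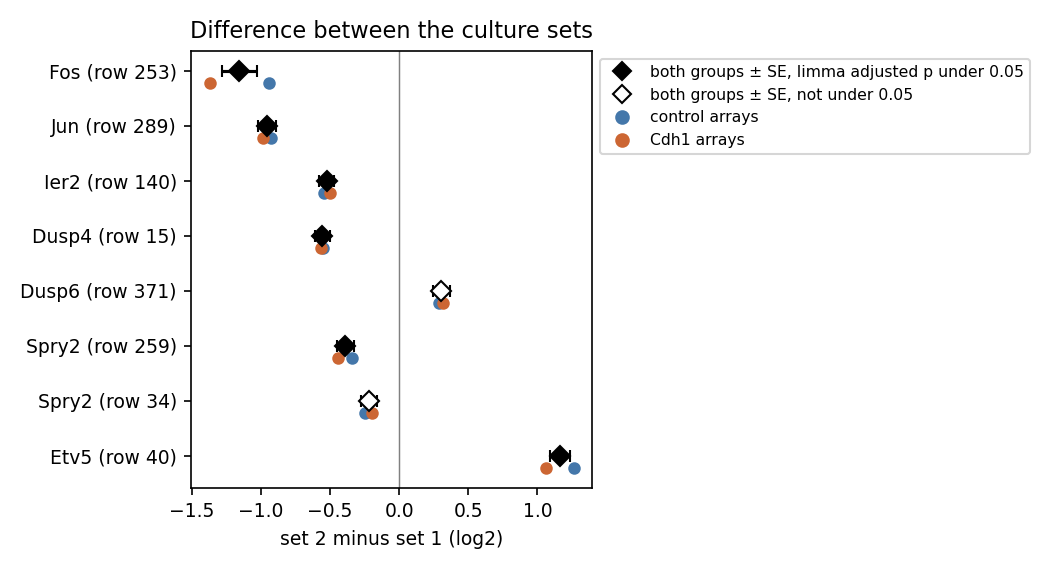
Difference of set 2 from set 1 (log2) for the 8 probes of the 7 tested genes: diamonds are the limma estimate over both groups with its SE, filled at an adjusted p under 0.05, and circles the difference within the control and within the Cdh1 arrays. The circles of a probe lie on the same side of 0 for all 8 probes, with Fos, Jun, Ier2, Dusp4 and Spry2 below 0 and Dusp6 and Etv5 above.

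Of the genes tested, the AP-1 genes fell most. Fos (NM_010234) had processed intensities of 226 ± 22.7 and 258 ± 25.9 in control and Cdh1 of set 1, and of 129 ± 13.1 and 107 ± 11.02 in set 2. Its level went from -1.25 ± 0.12 to -2.40 ± 0.18 (SD, n = 2, the control and the Cdh1 array of a set). It was 2.23-fold lower in set 2 (difference -1.16, SE 0.12, limma adjusted p 0.0183), by 0.94 in control and by 1.37 in Cdh1 arrays. Jun (NM_010591) had intensities of 5069 and 4990 in set 1 and of 2914 and 2697 in set 2. It was 1.94-fold lower in set 2 (difference -0.96, SE 0.06, limma adjusted p 0.00973), from 3.14 ± 0.03 to 2.18 ± 0.07. Ier2 (NM_010499), an immediate early gene for a nuclear regulator of transcription, had 742 and 742 in set 1 and 557 and 560 in set 2. That was a smaller fall, 1.44-fold (difference -0.52, SE 0.05, limma adjusted p 0.0168). Egr1, untested here because it was above background on only 1 array of each set, was also dimmer in set 2 in each group, by 1.24 in control arrays and, between spots not well above background, by 1.12 in Cdh1 arrays. Across Fos, Jun and Ier2, the spots within 3 rows and 3 columns that were bright on all arrays had median set differences of -0.07, 0.07 and 0.01.

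Since Fos and Jun fell together while Etv5 rose and Dusp6 lay above 0 without a call, their upstream sequences are printed to show what each holds. The windows are the 250 bases before the transcription start in the RefSeq table (build GRCm38.p6), 5′ to 3′ on the gene's strand, with searched motifs in capitals: Fos at chr12:85473640-85473889, plus strand; Jun at chr4:95052223-95052472, minus strand; Dusp6 at chr10:99262981-99263230, plus strand; and the upstream one of the 2 Etv5 starts at chr16:22439571-22439820, minus strand.
Fos: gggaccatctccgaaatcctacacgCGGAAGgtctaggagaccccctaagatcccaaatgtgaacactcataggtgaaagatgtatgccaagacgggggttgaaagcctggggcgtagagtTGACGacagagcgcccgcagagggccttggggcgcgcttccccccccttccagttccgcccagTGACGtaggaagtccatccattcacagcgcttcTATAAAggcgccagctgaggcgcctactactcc
Jun: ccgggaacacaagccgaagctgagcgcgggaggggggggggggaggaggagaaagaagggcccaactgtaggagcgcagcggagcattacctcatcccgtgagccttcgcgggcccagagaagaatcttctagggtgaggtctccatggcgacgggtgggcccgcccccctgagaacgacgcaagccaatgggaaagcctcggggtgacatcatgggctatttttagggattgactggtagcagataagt
Dusp6: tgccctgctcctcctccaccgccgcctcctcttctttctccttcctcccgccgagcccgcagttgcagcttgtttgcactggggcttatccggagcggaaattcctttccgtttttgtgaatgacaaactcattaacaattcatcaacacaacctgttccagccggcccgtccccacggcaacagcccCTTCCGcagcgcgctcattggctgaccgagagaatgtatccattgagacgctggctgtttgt
Etv5: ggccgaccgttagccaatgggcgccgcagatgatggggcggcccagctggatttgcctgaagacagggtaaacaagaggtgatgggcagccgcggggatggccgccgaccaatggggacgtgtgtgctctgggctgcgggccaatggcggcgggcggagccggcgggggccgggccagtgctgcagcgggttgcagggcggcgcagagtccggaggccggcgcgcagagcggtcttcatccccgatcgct
Of the 10 genes, the windows of 5 were searched (Fos, Jun, Dusp6, Spry2 and Etv5, the last with 2 starts). Those of Egr1, Ier2, Dusp4, Spry4 and Etv4 were not searched, which does not show that the table lacks them. Both strands were searched for 7 motifs: the CArG box bound by serum response factor, the cAMP response element TGACGTCA and its shorter part TGACG, the AP-1 site TGANTCA, the Egr site GCGTGGGCG, the ETS core CGGAAG and the TATA box TATAAA. Fos held TATAAA from 33 to 28 bases before the start, TGACG from 66 to 62 and from 129 to 125, and CGGAAG from 225 to 220. Dusp6 held CGGAAG on the opposite strand, from 62 to 57 bases before the start. The windows of Jun, Spry2 and both Etv5 starts held none of the 7 as written. Near matches were not searched, such as TGACATCA, which the printed Jun window contains. The absence of a match therefore does not show that a window lacks a site. Over all 32851 windows of this length in the table, 12.4% held TATAAA, 17.8% TGACG, 13.6% CGGAAG, 6.75% TGANTCA, 1.55% TGACGTCA, 1.47% a CArG box and 0.536% GCGTGGGCG. A match describes letters only, and an element outside the window would not be seen.

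Of the ERK phosphatases, Dusp4 was called and Dusp6 was not. Dusp4 (NM_176933), a nuclear phosphatase, had intensities of 1376 and 1399 in control and Cdh1 of set 1 and of 1031 and 1012 in set 2. It was 1.47-fold lower in set 2 (difference -0.56, SE 0.05, limma adjusted p 0.015), with the arrays of a set within 0.01 of each other. Dusp6 (NM_026268), a cytoplasmic phosphatase selective for ERK, had 2824 and 2957 in set 1 and 3783 and 3948 in set 2. Its difference of 0.31 (SE 0.06) had a limma adjusted p of 0.0522 and was not called; quantile normalization (0.0492), 4 other settings among them the restriction to probes above background on all arrays (0.0437), put it under the threshold. The Dusp6 spot lies in row 371, inside the last 24 rows, and the 29 bright spots around it had a median set difference of -0.02.

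Of the Sprouty genes, Spry2 (NM_011897) was measured by 2 probes. The brighter had intensities of 287 and 277 in set 1 and of 265 and 259 in set 2, a difference of -0.22 (SE 0.06, limma adjusted p 0.0804). The dimmer had 86.3 and 87.8 in set 1 and 74.8 and 69.1 in set 2, a difference of -0.39 (SE 0.06, limma adjusted p 0.0354). Both probes were lower in set 2 in each group, and they fell on opposite sides of the threshold; the gene is counted by its brighter probe.

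Among the PEA3 factors the direction was the reverse. Etv5 (NM_023794) had intensities of 143 ± 14.5 and 157 ± 15.8 in control and Cdh1 of set 1 and of 375 ± 37.6 and 349 ± 35.1 in set 2. It rose 2.24-fold in set 2, from -1.94 ± 0.08 to -0.77 ± 0.06 (difference 1.16, SE 0.07, limma adjusted p 0.00911), by 1.26 in control and by 1.06 in Cdh1 arrays. Etv1, the remaining gene of this group, also rose, from -0.98 ± 0.05 to -0.48 ± 0.04 (difference 0.49, SE 0.06, limma adjusted p 0.0229). For Etv4 the 2 spots of set 2 had the higher intensities given above, with no fold or test because 3 of its 4 spots were not well above background.

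The same set comparison was made for the rest of the pathway, in lists that leave out the 10 genes. Of 26 other immediate early genes tested (of 31 listed), 10 were lower and 5 higher in set 2 (57.7% called, against 19% of all genes tested, 11.5% lower and 7.53% higher), with a median of -0.23 against -0.03 over all genes. Among those called, the largest falls were those of Fosl2, a Fos relative (-1.42, SE 0.05), Plk2, a polo-like kinase (-1.09, SE 0.08), and Atf3, a stress-responsive factor (-1.03, SE 0.12). The largest rises were those of Gadd45b, a stress gene (1.11, SE 0.07), Maff, a small Maf factor (0.96, SE 0.07), and Klf10 (0.71, SE 0.11). The limma adjusted p of these 6 lay between 0.00648 and 0.0322. Immediate early genes thus differed in both directions.

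Of 18 other feedback and target genes tested (of 21), 4 were lower and 5 higher in set 2 (50% called, against the 19% of all genes), with a median of -0.15. Dusp1, a phosphatase that is itself an immediate early gene, fell by 1.03 on the log2 scale (SE 0.06, limma adjusted p 0.00814), and Dusp10 and the ephrin receptor gene Epha4 were at -0.70 and -0.60 (adjusted p 0.0418 and 0.0337). Epha2 (0.65), Etv1 and the Sprouty-related inhibitor Spred1 (0.44) led the rises, with adjusted p of 0.015, 0.0229 and 0.0289.

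The RAS-RAF-MEK-ERK cascade list also holds proteins that act upstream of Ras, such as Grb2 and Sos1, and the transcription factors Elk1, Elk3 and Elk4. Of its 29 genes, all tested, 2 were lower and 0 higher in set 2, with a median of 0.01 (6.90% called, against 19% of all genes, a difference that was not tested). These were Mknk2, a kinase downstream of ERK, at -0.51 (SE 0.07, limma adjusted p 0.0253), and Rasa2, a Ras GTPase-activating protein, at -0.50 (SE 0.07, limma adjusted p 0.0296). Missing the threshold does not show that the remaining genes were alike in the sets. Of 19 receptor and ligand genes tested (of 29), 3 were lower and 6 higher in set 2 (47.4% called, against 19% of all genes), with a median of 0.24. Met, the receptor of hepatocyte growth factor, was 3.85-fold lower (-1.95, SE 0.11, limma adjusted p 0.0078), Fgfr1 was at -0.99 (0.0194) and Pdgfra, whose spot lies in row 361, at -0.41 (0.034). Tgfa, a ligand of the EGF receptor, was 2.80-fold higher (1.48, SE 0.16, adjusted p 0.0184), Erbb3 2.40-fold higher (1.26, 0.0214) and Fgfr3 1.70-fold higher (0.77, 0.0108). The Egfr probe was not well above background on any array. With Cdh1, 0 genes of any of these lists were called, and the list medians lay between -0.04 and 0.01.

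**Figure D5:**
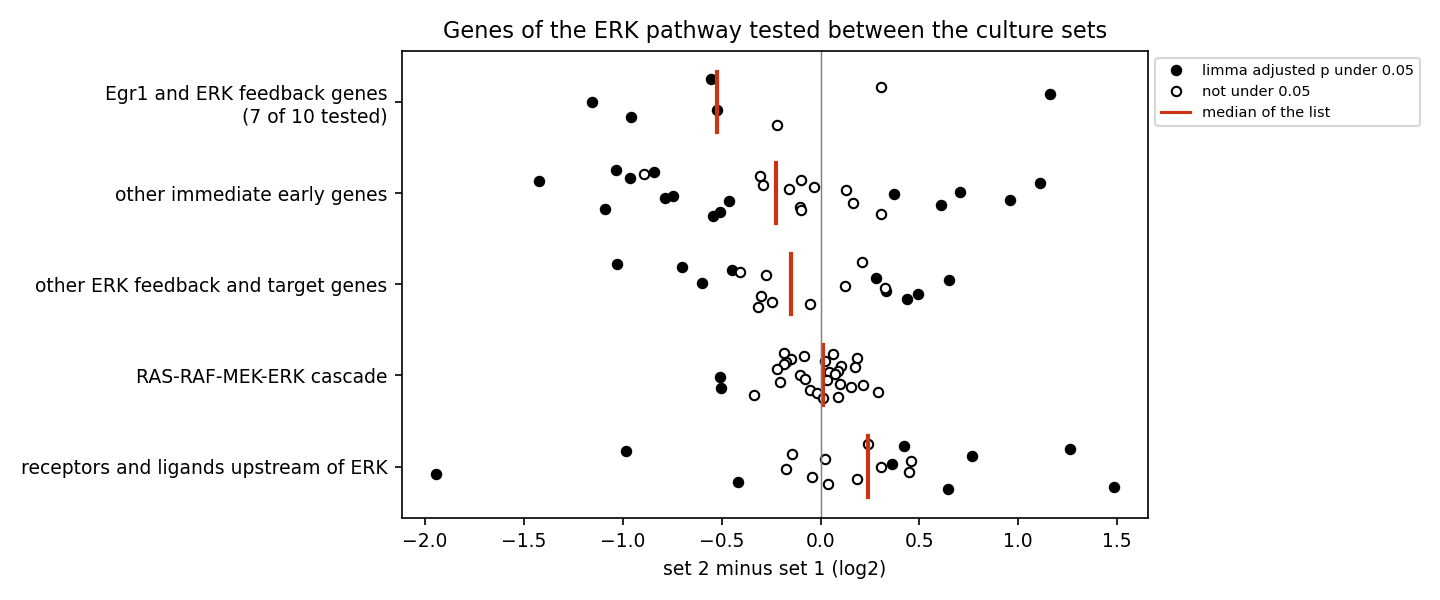
Difference of set 2 from set 1 (log2) for every tested gene of the 5 lists, 1 circle a gene, filled at a limma adjusted p under 0.05, with the list median as a red line. Genes of the RAS-RAF-MEK-ERK cascade lie within 0.51 of 0, while the immediate early, feedback and receptor lists reach from below -1 to beyond 0.6.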

How the data were processed

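Total RNA of 4 cultures was labelled with Cy3 and hybridised to 1-colour Agilent arrays. Per the file headers, the authors extracted spot values with Agilent Feature Extraction 12.0.3.1. Its processed intensity, as deposited, is linear, background-subtracted and detrended within the array, and not normalized between arrays. The deposited value table holds the same intensities times 1 factor per array (0.873 to 0.93).

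Log2 processed intensities were set relative to the 75th percentile of each array, outlier-marked spots (115 to 143 per array) were left out and spots of a probe averaged. Probes flagged well above background throughout 1 or more of the groups compared were fitted with limma 3.58.1 (R 4.3.3; lmFit, eBayes, no block) and adjusted by Benjamini-Hochberg over all probes, threshold 0.05: 32568 for Cdh1 against control and 32955 for set 2 against set 1. A gene is counted by its RefSeq probe of highest mean signal. With 2 arrays on each side, 0.333 is the smallest two-sided p of an exact permutation test, and the number of arrays limits precision. The p-values measure the spread between these cultures only. In the set comparison that spread is the one between the control and the Cdh1 culture within a set. Each set is a single culture set, so those p-values hold no variation between repeats of a set.

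Titles and design text give each set 1 control and 1 Cdh1 culture, so the numbers pair the arrays; deviations from group means correlated at 0.744 within a set over 31155 probes. Probes were named through RefSeq accessions (GRCm38.p6; 33767 of 56605); the array design names another build, and the upstream windows, in GRCm38.p6, were not set against its coordinates. The genes and lists were chosen with earlier results of these data known. Named besides the 10 genes are, per pathway list, up to 3 genes with the largest called rise and up to 3 with the largest called fall between sets, and the 5 nearest to Egr1. Python 3.11.15, pandas 2.3.3 and matplotlib 3.10.9 served for sequences and drawing. Alternatives tried were other scalings, filters, blocks and priors, and leaving out each array, the last 24 rows or marked spots.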

Additional observations from a re-analysis of the deposited data

How the results depend on the processing

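The 0 probes called between Cdh1 and control remained 0 under each of the 14 alternatives, the set as a replicate block among them (0 called, lowest adjusted p 0.617), which changed no call; with 1 array left out it was 0 to 0. The 5095 probes called between the sets became 9033 with normexp and quantile normalization, 11194 with the trend and robust prior, 2165 with treatment as a block, 0 without the filter on dim probes and 0 to 409 with 1 array left out, where the lone array of a set is assumed to vary like the other set. The 5 genes called among the 10 became 3 with treatment as a block, 0 without the filter and 0 to 0 with 1 array left out. The median set difference of the 7 genes tested, -0.52, was -0.44 with normexp and quantile normalization and -0.48 with the authors' deposited table. The median Cdh1 difference of the 8 genes tested, -0.02, was -0.067 with median centring and -0.27 to 0.18 with 1 array left out, since 1 group then holds 1 set alone. The causes of the other changes were not tested. Signal over background limits Egr1, whose measured Cdh1 differences include spots not well above background. The bounds given for Egr1 are approximate, since they rest on the lowest flagged signal of each Cdh1 array. Spry4 and Etv4 are limited in the same way and have no comparison.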

Other observations

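Nab2 (NM_008668), a co-repressor that binds Egr proteins and is itself induced by them, was looked up after the Egr1 values were seen. Its processed intensity was 1125 for control and 1165 for Cdh1 in set 1. In set 2 it was 1508 for control and 1359 for Cdh1. It was well above background on all 4 arrays, in row 149. Its Cdh1 difference was 0.03 in set 1 and -0.13 in set 2, and its set difference of 0.21 (SE 0.07) had a limma adjusted p of 0.129.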
